A study of Mus musculus with 2 samples.

Results

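The venous endothelial cells of the mouse aorta were 657 cell barcodes out of 68463 kept in the 2 libraries of the study, of which 5230 were endothelial. A barcode was taken when at least 3 of 8 genes shared by all endothelium (Egfl7, Esam, Ecscr, Cdh5, Cldn5, Ptprb, Tie1 and Cd93) had a UMI, a sequenced transcript molecule. It also needed a UMI of at least 2 of the 6 venous genes Ackr1, Selp, Sele, Lrg1, Ubd and Tll1, more of these than of 6 arterial and of 6 capillary genes, and at most 1 of the lymphatic genes Prox1, Mmrn1 and Reln. The WT library held 260 of them and the EC-iCD45KO library 397.

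Both libraries were single-cell RNA profiles of aortas from mice lacking ApoE (ApoE-/-, C57BL/6) that ate a Western diet, a model of atherosclerosis. The WT mice carried no further deletion, whereas CD45 had been removed from the endothelium of the EC-iCD45KO mice by a tamoxifen-inducible system. Digested aortas were passed over CD31 beads, which hold endothelial cells, before the libraries were made. The study asked how CD45, the tyrosine phosphatase that Ptprc encodes and that leukocytes carry, acts in aortic endothelium on lesions and on the endothelial to mesenchymal transition. The labels give neither the Cre driver, the ages, the number of animals pooled, nor the vessel of the aortic wall or its surroundings from which venous cells came. Each group had 1 library, so no test between the groups was possible, every difference is given as a size, and all intervals are 95% intervals that cover counting error only.

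Venules are the segment of the vascular tree in which leukocytes leave the blood. P-selectin (Selp) and E-selectin (Sele) slow passing leukocytes, the atypical receptor Ackr1 carries chemokines across the endothelium, and integrin ligands such as ICAM-1 and VCAM-1 then hold the cells. Venous identity is maintained by the nuclear receptor COUP-TFII (Nr2f2), and specialised high endothelial venules of lymphoid tissue add sulphated ligands for L-selectin and the chemokine CCL21.

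The 2 libraries stood apart in their other cells. Barcodes with B-cell genes were 49.5% of those kept in WT and 4.70% in EC-iCD45KO, those with T-cell genes 20.7% and 2.86%, and those with macrophage genes 29.5% and 56.9%. The libraries shared 340 barcode sequences, none of them among the venous cells. Median depth was 1552 and 1438 UMIs per kept barcode, and 2925 and 2805 in the venous cells, which together held 1152991 UMIs in WT and 1878360 in EC-iCD45KO. Levels are CPM, the UMIs of a gene per 1000000 UMIs of these sums. In the annotation Ackr1 overlaps Cadm3, Selp overlaps Gm16548 and Gm16587, and Vcam1 overlaps Gm43109; whether counting used the strand is not given in the sources used here.

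The genes that chose the cells are described first, and the choice itself makes them high. Ackr1 (chr1:173331886-173333750, minus strand, build GRCm38) stood in WT at 374 CPM (339 to 411) and in EC-iCD45KO venous cells at 1020 CPM (974 to 1066). Selp stood at 458 CPM (420 to 499) and 1390 CPM (1337 to 1444). Sele was lower in both, at 108 CPM (89.5 to 128) and 273 CPM (250 to 298). These genes chose the cells and each group is 1 library, so the levels are descriptions and the intervals cover counting error only. The other 3 rule genes differed less between the libraries. Lrg1, which encodes a secreted glycoprotein that modifies TGF-beta signalling, was at 1537 and 1558 CPM. Ubd, encoding the ubiquitin-like modifier FAT10, was at 393 CPM (358 to 431) and 266 CPM (243 to 291). Tll1, a procollagen-processing protease, was at 151 CPM (129 to 175) and 210 CPM (190 to 232).

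With every cell thinned to 1000 UMIs, a UMI of Ackr1 was found in 30.2% of WT and 44.6% of EC-iCD45KO venous cells, against 57.3% and 70.0% without thinning. For Selp the thinned shares were 27.1% and 49.1%, and for Sele 5.10% and 14.1%, against 62.3% and 75.8% and 18.5% and 28.5% unthinned. B cells, which should lack these genes, gave thinned shares of 0.620% and 0.519% for Ackr1 and 0.866% and 1.30% for Selp, at median depths of 1633 and 2474 UMIs. The arterial cells were chosen to have more arterial than venous genes, which by itself lowers the rule genes in them. A UMI of Ackr1 was found after thinning in 0 of 323 WT and 0 of 229 EC-iCD45KO arterial cells, which allows shares of up to 1.14% and 1.60%, and its arterial level was 2.89 and 3.35 CPM. Arterial cells held Selp at 250 and 193 CPM, and 11.5% and 15.7% of them had a UMI of it after thinning. Lrg1 was found in 50.9% and 42.9% of thinned lymphatic cells, and Tll1 in 10.9% and 11.4%.

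**Figure D1:**
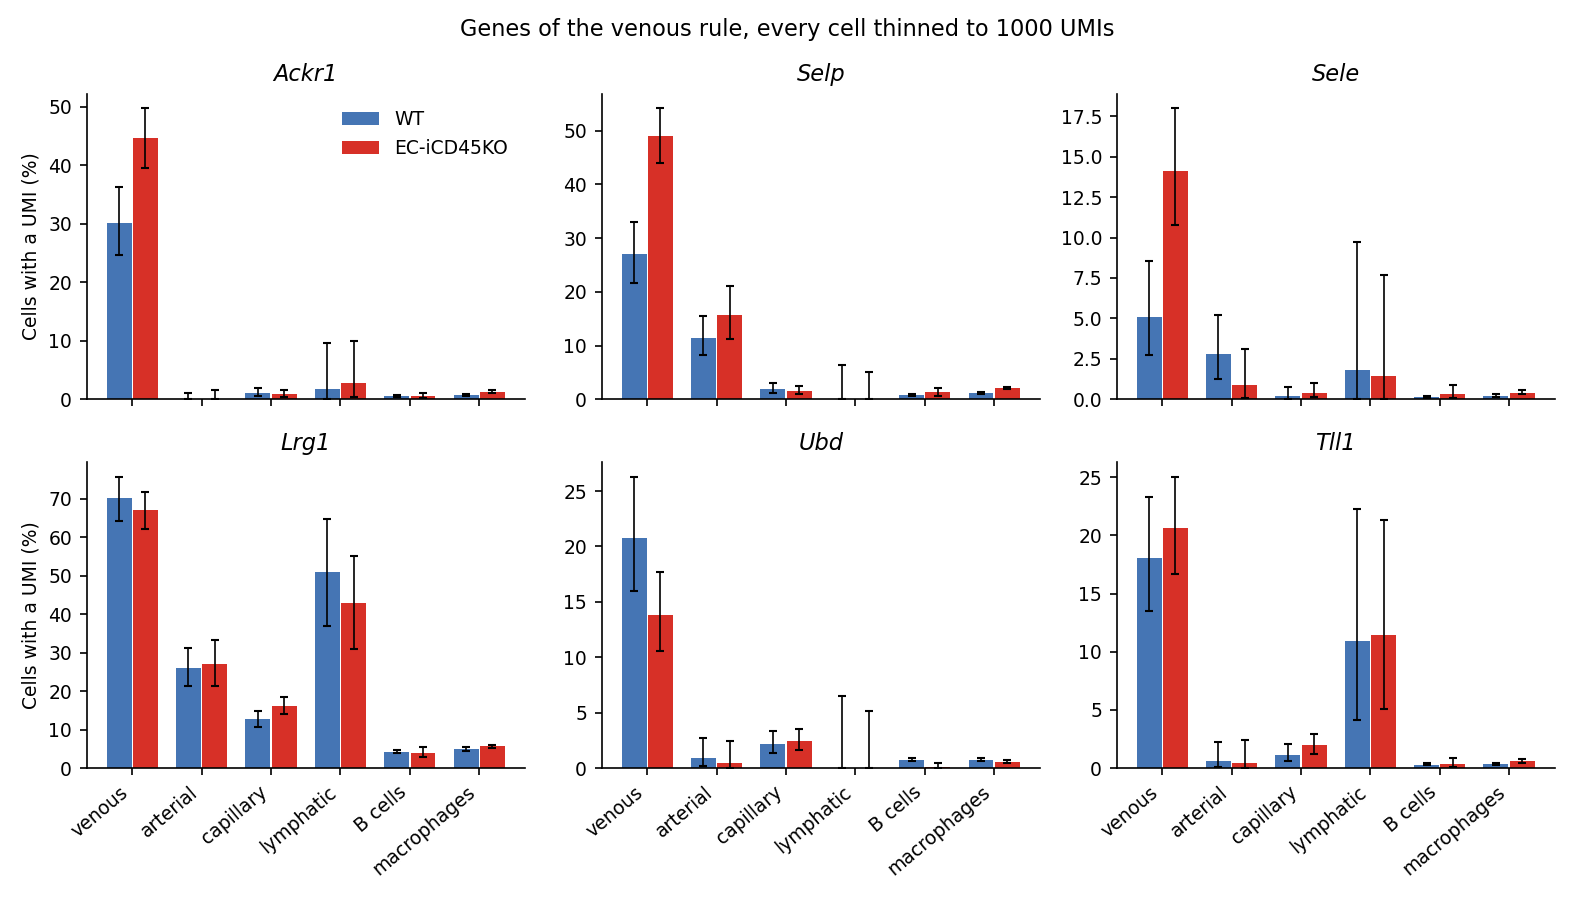
Share of cells with a UMI of each of the 6 venous rule genes (percent, every cell thinned to 1000 UMIs, a separate vertical scale per gene) in venous, arterial, capillary and lymphatic endothelial cells, B cells and macrophages of the WT and EC-iCD45KO libraries; error bars are exact 95% binomial intervals and cover counting error only. The venous bars for Ackr1 reach 30.2% and 44.6% and its arterial bars are at 0, while Selp was also found in arterial cells (11.5% and 15.7%) and Lrg1 in lymphatic cells (50.9% and 42.9%).

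The rule genes did not all occur in the same cells. Ackr1 and Selp were counted together in 85 WT cells (32.7%) and 214 EC-iCD45KO cells (53.9%). All of Ackr1, Selp and Sele were counted in 22 (8.46%) and 80 (20.2%) cells, and none of them in 26 (10.0%) and 26 (6.55%). Cells with exactly 2 venous genes numbered 88 and 129, those with 3 numbered 92 and 110, and all 6 genes were counted in 6 and 22 cells. Depth moved with this count: median UMIs went from 2222.5 in WT cells with 2 genes to 12350.5 in those with 6, and from 1857 to 10460.5 in EC-iCD45KO cells. Just inside the threshold, the cells with 2 genes held a UMI of Ackr1 in 23.9% and 40.3% and of Selp in 47.7% and 49.6%. Just outside it, 68 WT and 84 EC-iCD45KO endothelial cells with 1 venous gene and no arterial or capillary gene held Ackr1 in 2.94% and 5.95% and Selp in 16.2% and 14.3%.

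Selp and Sele lie next to each other on mouse chromosome 1, at 164115264-164150026 and 164048234-164057677 on the plus strand. The 250 bases before each start site (RefSeq, GRCm38.p6) are shown because both selectins are rule genes. Each window holds 1 match, in capitals, to TGANTCA, a loosened AP-1 core with a free middle base that reads alike on both strands. The match is TGATTCA for Selp and TGACTCA for Sele, and matches with C or G in the middle were not counted separately. The Selp window is chr1:164115014-164115263 and the Sele window chr1:164047984-164048233, both on the plus strand.
Selp: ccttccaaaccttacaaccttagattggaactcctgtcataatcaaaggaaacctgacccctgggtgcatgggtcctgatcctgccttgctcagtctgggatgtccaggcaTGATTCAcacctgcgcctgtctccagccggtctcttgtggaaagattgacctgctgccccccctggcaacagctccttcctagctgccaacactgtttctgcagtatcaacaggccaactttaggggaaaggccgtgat
Sele: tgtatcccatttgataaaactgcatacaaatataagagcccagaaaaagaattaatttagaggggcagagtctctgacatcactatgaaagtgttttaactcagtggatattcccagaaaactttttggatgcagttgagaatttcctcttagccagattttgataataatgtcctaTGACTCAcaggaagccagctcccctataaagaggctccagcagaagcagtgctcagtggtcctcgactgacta
The matches lie at positions -139 to -133 for Selp and -73 to -67 for Sele, counted from the start site. Such a match occurred in 2217 of 32851 windows of that length (6.75%). A single form of the kappa-B motif was searched on both strands, GGG followed by any 2 bases and TTTCC. It was not found in the windows of Ackr1, Selp, Sele, Lrg1 and Tll1, where other forms of the motif were not searched. It was found once for Ubd, at -15 to -6, and in 464 of 32851 windows (1.41%).

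Venous cells were 10.8% of WT endothelial cells (260 of 2407, exact interval 9.59 to 12.1) and 14.1% of EC-iCD45KO endothelial cells (397 of 2823, 12.8 to 15.4), a difference of 3.26 percentage points (Newcombe interval 1.47 to 5.04). When cells were thinned to 1000 UMIs before they were chosen, the shares were 8.08% (89 of 1102) and 9.94% (135 of 1358), with overlapping intervals of 6.54 to 9.84 and 8.40 to 11.7. In endothelial cells with at most 2 markers of each of 7 other cell types, they were 8.79% (81 of 922) and 9.06% (94 of 1038). With Lrg1 left out of the rule they were 4.74% (114 of 2407) and 9.07% (256 of 2823), a difference of 4.33 points. The shares depend on this rule, and whether the CD31 bead step acted on them was not tested.

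What the cells shared beyond the rule genes was read from the genes that differed at least 2-fold, in the same direction in both libraries, from arterial or capillary cells chosen by the mirror-image rule. Of 6400 genes with at least 20 CPM, 5.89% differed from arterial cells, 2.61% being higher and 3.28% lower. Of 6536 genes 4.22% differed from capillary cells, 1.67% being higher and 2.56% lower. The cells were chosen to differ, so these values are descriptions. Nr2f2, the transcription factor of venous identity, was at 234 and 270 CPM in WT and EC-iCD45KO venous cells. It was at 13.7 and 26.8 CPM in arterial and at 68.8 and 76.9 in capillary cells. Lymphatic cells, which the same factor also marks, held more of it than the venous cells, at 573 and 452 CPM. After thinning, 20.4% and 26.1% of venous cells had a UMI of it.

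Insr, Il1r1 and Calcrl, which encode receptors or receptor subunits, were among the 15 genes with the highest venous excess. No list of receptors was set beforehand, so they are single examples. Insr, the insulin receptor, was at 460 and 471 CPM, against 47.6 and 68.9 in arterial and 91.0 and 114 in capillary cells. Il1r1, the receptor for interleukin-1, was at 173 and 245 CPM, against 32.5 and 22.8 in arterial and 49.8 and 42.0 in capillary cells. Both receptors exceeded both comparison sets more than 2-fold in both libraries, and lymphatic cells held 42.1 and 55.4 CPM of Insr and 46.4 and 30.0023 CPM of Il1r1. Calcrl, a receptor subunit for adrenomedullin and CGRP, was at 253 and 320 CPM, against 51.9 and 71.6 in arterial and 88.1 and 104 in capillary cells, but lymphatic cells held as much in WT, at 253 CPM, and 247 CPM in EC-iCD45KO. Among the 15 genes with the highest venous excess were Meox1, a homeobox factor (108 and 170 CPM), the proteoglycan Vcan (88.5 and 128) and Ptgs1, a cyclooxygenase (114 and 92.1). Arterial levels of these 3 genes ran from 4.68 to 39.7 CPM and capillary levels from 12.9 to 61.7 CPM, while lymphatic cells held Meox1 at 181 and 94.6 CPM. Ptgs1 lost its excess over arterial or capillary cells when cells were thinned before the choice (lowest log2 ratio -0.08). Fkbp11, Ehd3, Cmah and Ctnnal1 complete these genes, with venous levels from 102 to 208 CPM and arterial and capillary levels from 9.37 to 49.7 CPM; lymphatic cells held Cmah at 114 and 376 CPM and Ctnnal1 at 139 and 127 CPM.

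Mctp1, encoding a calcium-binding membrane protein, was at 847 and 1474 CPM, against 186 and 151 in arterial and 113 and 159 in capillary cells. Serpinb1a, an inhibitor of neutrophil proteases, was at 263 and 559 CPM, against 55.5 and 41.5 in arterial and 52.4 and 36.04 in capillary cells. In EC-iCD45KO cells these were log2 ratios of 3.29 and 3.22 for Mctp1 and of 3.75 and 3.96 for Serpinb1a. Csf3, encoding the neutrophil growth factor G-CSF, had the highest ratios among the 15 genes with the highest venous excess. Its mean over venous and arterial or capillary cells was under 20 CPM in WT, so it was not called. There it was at 21.7 CPM in venous, 0.721 in arterial and 0.585 in capillary cells. In EC-iCD45KO it was at 278 CPM in venous, 0.669 in arterial and 3.66 in capillary cells. Timp1, a metalloprotease inhibitor at 422 and 688 CPM, rested on few cells: 1052 of its 1292 UMIs in EC-iCD45KO came from 1 cell, and it was counted in 22.7% and 30.2% of venous and 21.8% and 31.9% of arterial cells.

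**Figure D2:**
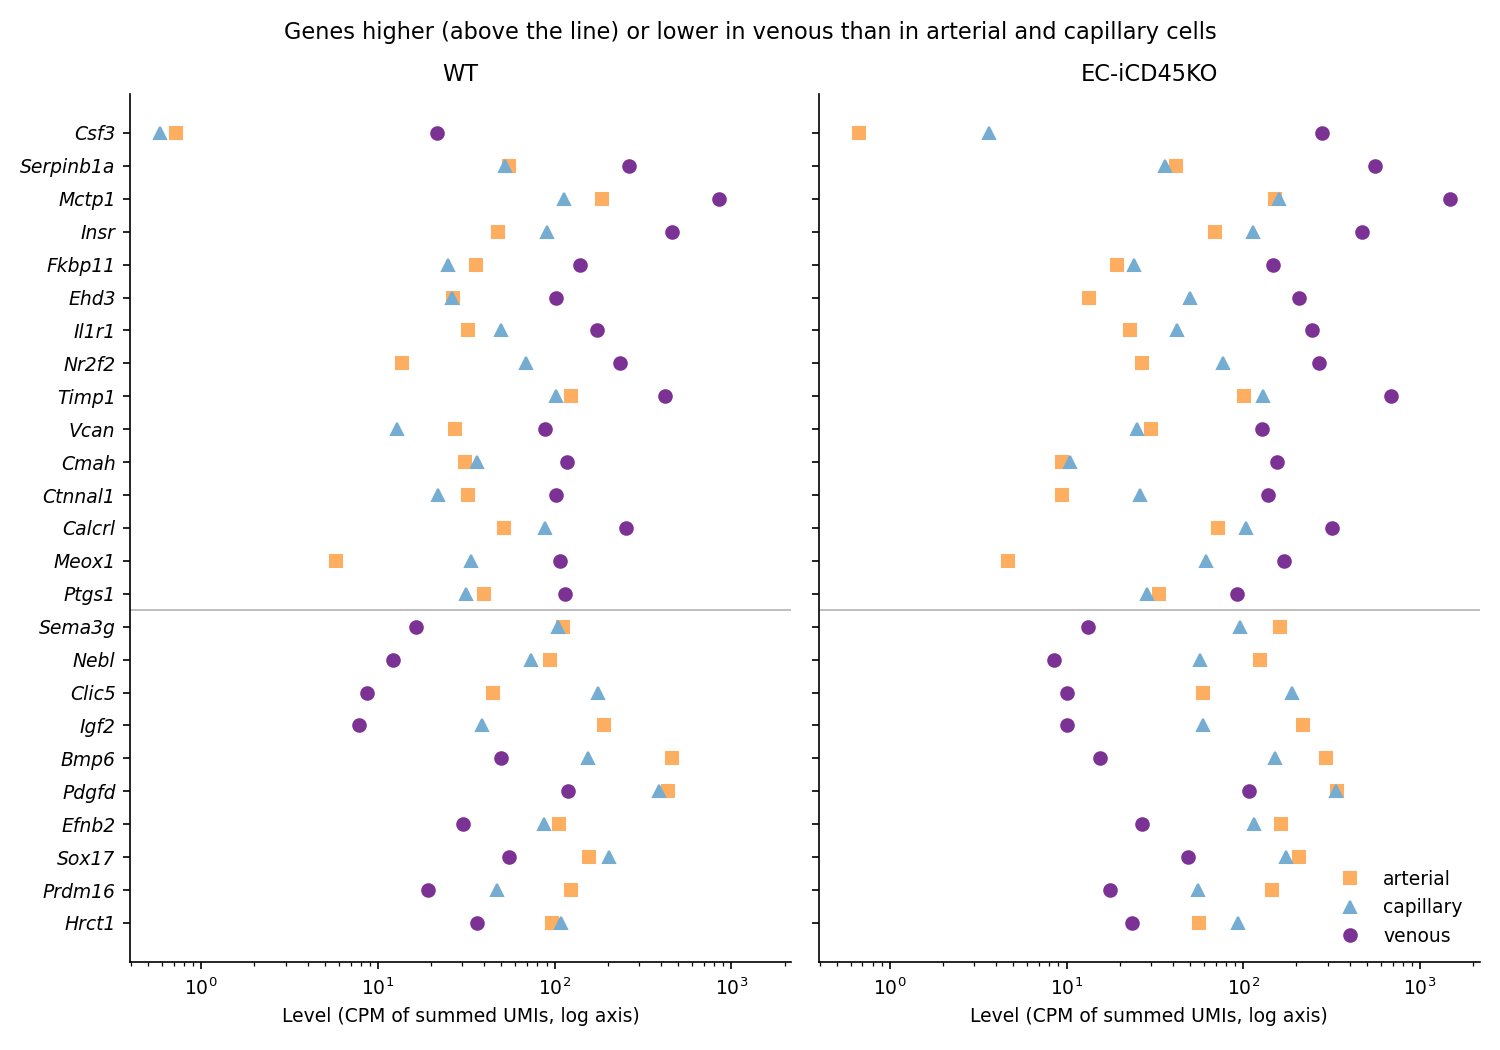
Levels (CPM of summed UMIs, log axis) in venous, arterial and capillary cells of each library for the genes with the highest venous excess (above the grey line) and deficit (below it) that were not rule genes; 1 point per cell set. The venous points of Csf3, Mctp1, Serpinb1a, Insr and Nr2f2 lie to the right of the arterial and capillary points in both libraries, and those of Igf2, Clic5, Sema3g and Efnb2 to the left.

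Several arterial genes were among those lower in venous cells. Efnb2, the ephrin that marks arterial endothelium, was at 30.4 and 26.6 CPM, against 105 and 163 in arterial cells. The arterial factor Sox17 was at 55.5 and 49.0 CPM, against 156 and 208 in arterial and 202 and 174 in capillary cells, although its deficit was gone in at least 1 comparison with cells thinned before the choice (log2 ratio 0.00). Sema3g, a secreted semaphorin of arteries, was at 16.5 and 13.3 CPM against 112 and 161. Igf2, an insulin-like growth factor, was at 7.81 and 10.1 CPM against 190 and 217, and Bmp6, a bone morphogenetic protein, at 49.4 and 15.4 CPM against 461 and 295. Each of these 5 genes was lower in the venous cells of both libraries. Clic5, an intracellular chloride channel protein, had the strongest deficit against capillary cells, at 8.67 and 10.1 CPM against 176 and 189. Nebl, Prdm16, Pdgfd and Hrct1 were lower too, with venous levels from 8.52 to 120 CPM and arterial levels from 56.2 to 441 CPM.

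Lists of genes that were no part of the rule were also compared between these cell sets. The cells were chosen to differ by mirror-image rules, and the lists were chosen with earlier results of these data known. The counts are therefore descriptions and no support for the label. Of 16 venous identity genes, 6 were higher than in arterial cells (Nr2f2, Nrp2, Aplnr, Emcn, Il1r1 and Csf2rb) and 2 lower, Ctsh among them, where 5.89% of all genes differed (2.61% higher, 3.28% lower). The list had median log2 ratios of 0.91 in WT and 0.91 in EC-iCD45KO, against 0.03 and 0.00 over all genes. Against capillary cells, 7 of 16 were higher (Nr2f2, Vwf, Icam1, Il1r1, Il6st, Plvap and Prss23) and none lower, where 4.22% of all genes differed (1.67% higher, 2.56% lower), with medians of 1.37 and 0.77 against -0.04 and -0.06 over all genes. Of 13 arterial genes outside the rule, 11 were lower than in arterial cells (medians -1.72 and -2.09) and none higher. Capillary genes took a middle position. Of 10 measured against arterial cells 7 were higher (medians 1.98 and 1.51), and of 12 measured against capillary cells 8 were lower (medians -2.09 and -2.17). Fabp4, a fatty acid carrier of small vessels, showed this at 6951 and 5909 CPM in venous, 1233 and 1112 in arterial and 18295 and 16529 in capillary cells.

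The targeted gene opens the comparison of the libraries. Ptprc (chr1:138062861-138175708, minus strand) stood in WT venous cells at 202 CPM (177 to 230) and in EC-iCD45KO venous cells at 80.9 CPM (68.6 to 94.9), a log2 ratio of -1.32 (-1.62 to -1.02). A UMI was found in 43.5% and 23.9% of the cells, or 22.7% and 7.83% after thinning. Ptprc was lower in several other cell sets of the EC-iCD45KO library too, with log2 ratios of -1.14 in arterial cells, -1.48 in capillary cells and -0.70 in barcodes with no endothelial gene. Endothelial cells in none of the named sets gave -1.52, barcodes with macrophage genes -0.87 and those with T-cell genes -0.42. B cells gave -0.20 and lymphatic cells -0.09 (-0.74 to 0.59). The part of the gene that was deleted is not given, so UMIs from outside it say nothing of the deletion. Leukocyte RNA moved with this value: B-cell markers summed to 744 CPM in WT and 59.6 CPM in EC-iCD45KO venous cells, and T-cell markers to 218 and 28.7 CPM. Markers of other leukocytes went the opposite way, macrophage markers from 2474 to 6076 CPM and neutrophil markers from 43.4 to 152 CPM. Their part in the Ptprc difference was not tested.

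Of 6859 genes whose mean reached 20 CPM in venous cells, 4.87% differed at least 2-fold: 120 (1.75%) were higher in EC-iCD45KO and 214 (3.12%) lower, and the median log2 ratio was -0.01. The list of chemokines and cytokines held 14 genes, of which 13 reached that minimum. Of these, 6 were at least 2-fold higher and 1 was lower, and the list's median log2 ratio was 0.67. The minimum applied to the mean of both libraries, so a gene could pass it through the library where it was high. Ccl7 (18.2 CPM in WT, 106 in EC-iCD45KO) and Ccl19 were under it in WT, and Cx3cl1, lower in EC-iCD45KO, just missed it. The count and the median partly depend on this filter. In the list of pan-endothelial genes outside the rule, 0 of 13 passed 2-fold and the median was 0.10.

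**Figure D3:**
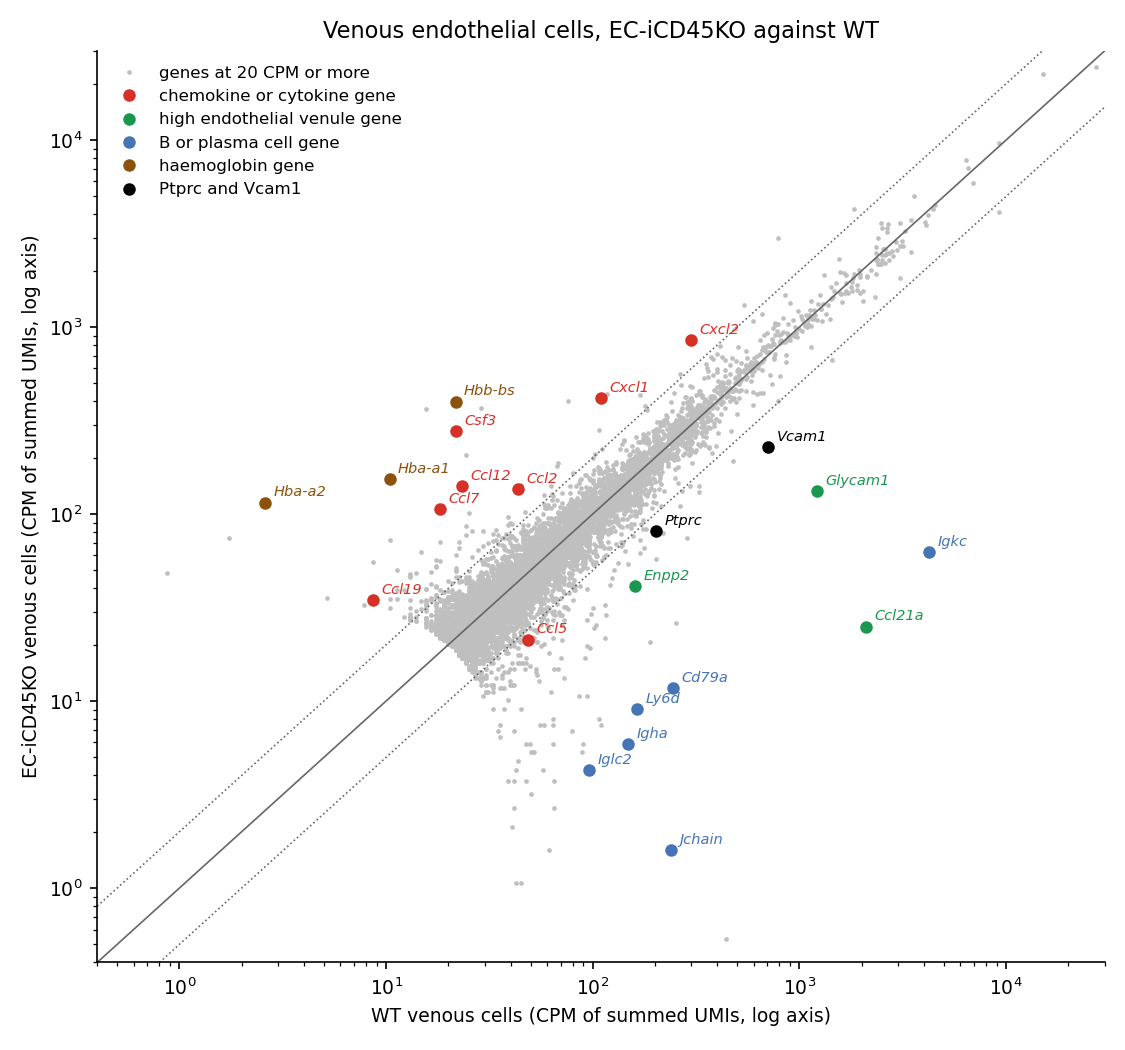
Levels in WT and EC-iCD45KO venous cells (CPM of summed UMIs, log axes) of the genes at 20 CPM or more that had a UMI in both libraries, with selected genes coloured by kind, a solid line at equality and dotted lines at 2-fold. Csf3, Cxcl1 and Cxcl2 lie above the upper dotted line, and Glycam1, Ccl21a and the marked genes of B and plasma cells lie below the lower one.

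Csf3 (chr11:98701263-98703629, plus strand) differed most among the cytokines. It was at 21.7 CPM in WT (25 UMIs in 10 cells) and 278 CPM in EC-iCD45KO (522 UMIs in 82 cells), and the log2 ratio was 3.68 (3.10 to 4.32). The share of cells with a UMI was 3.85% and 20.7%, and 1.18% and 11.2% after thinning. Barcodes with no endothelial gene held Csf3 at 0.174 and 1.22 CPM, far under the venous level in both libraries but at a log2 ratio of 2.81 (1.84 to 3.90). Capillary cells gave 2.65 (0.59 to 5.79), and arterial cells, with 0.721 and 0.669 CPM, gave -0.11 with an interval from -6.40 to 6.19. Leaving out the 5 cells with most Csf3 UMIs in each library left 5 WT and 308 EC-iCD45KO UMIs, a log2 ratio of 5.23. Only 10 WT cells held Csf3, so this step took a larger part of the WT UMIs and by itself raised the ratio. The ratio stayed past 2-fold in 13 of 13 alternative settings (3.15 to 5.23), of which 5.23 came from that step.

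The neutrophil chemokines Cxcl1 and Cxcl2 passed 2-fold as well. Cxcl1 was at 110 CPM in WT and 418 CPM in EC-iCD45KO venous cells, a log2 ratio of 1.92 (1.65 to 2.21), with a UMI in 16.5% and 23.7% of cells. A single EC-iCD45KO cell held 176 of its 785 UMIs there, and without the 5 highest cells of each library its levels were 57.6 and 187 CPM, a log2 ratio of 1.70 (1.31 to 2.11). Cxcl2 was at 299 and 850 CPM, a log2 ratio of 1.51 (1.34 to 1.68), with a UMI in 34.6% and 62.5%. Both were higher in EC-iCD45KO venous cells, and both were also higher in barcodes with no endothelial gene of that library, where Cxcl1 went from 60.7 to 214 CPM and Cxcl2 from 983 to 3392 CPM. Macrophage markers summed to 2474 CPM in WT and 6076 CPM in EC-iCD45KO venous cells, and at least 3 of the 7 had a UMI in 49.2% and 68.0% of them; their part in these differences was not tested. In the cells with at most 2 markers of each other cell type, Cxcl1 stood at a log2 ratio of 2.71, whereas Cxcl2 stood at 0.28 and no longer passed 2-fold. In capillary cells the log2 ratios were 1.11 for Cxcl1 and 1.28 for Cxcl2. In arterial cells Cxcl2 was at 0.999 and Cxcl1 at -1.02 (106 and 52.2 CPM), the direction opposite to that in the venous cells.

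The promoters of Cxcl1 and Cxcl2 are shown because the 2 neighbouring genes differed in the same direction and each holds a pair of kappa-B matches. The 250 bases before each start (RefSeq, GRCm38.p6) are chr5:90890995-90891244 for Cxcl1 and chr5:90903649-90903898 for Cxcl2, both on the plus strand, with matches on either strand in capitals.
Cxcl1: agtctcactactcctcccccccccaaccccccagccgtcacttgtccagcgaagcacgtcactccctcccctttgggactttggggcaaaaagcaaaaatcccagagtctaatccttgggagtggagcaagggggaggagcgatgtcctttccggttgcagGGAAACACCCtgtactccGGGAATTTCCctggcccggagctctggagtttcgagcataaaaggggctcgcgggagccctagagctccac
Cxcl2: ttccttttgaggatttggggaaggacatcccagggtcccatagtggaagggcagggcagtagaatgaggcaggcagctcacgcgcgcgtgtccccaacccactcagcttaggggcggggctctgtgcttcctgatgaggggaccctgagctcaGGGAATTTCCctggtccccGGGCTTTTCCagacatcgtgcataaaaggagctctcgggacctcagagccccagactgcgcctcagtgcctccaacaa
The Cxcl1 matches lie at -89 to -80, on the minus strand, and at -71 to -62, and those of Cxcl2 at -97 to -88 and -78 to -69. Of the 14 chemokine and cytokine genes, 9 had a promoter entry, and 4 of these held the motif (Cxcl1, Cxcl2, Csf1 and Il6), against 1.41% of all windows. Csf1, a macrophage growth factor, was at 26.9 and 28.2 CPM, and Il6 at 27.8 and 44.2 CPM, a log2 ratio of 0.67 (0.07 to 1.31).

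The monocyte chemokines also stood higher. Ccl2 was at 43.4 and 135 CPM, a log2 ratio of 1.64 (1.20 to 2.11), and Ccl7 at 18.2 and 106 CPM, a ratio of 2.54 (1.89 to 3.26). Each was at least 2-fold higher in arterial and capillary cells as well, with ratios of 2.36 and 1.20 for Ccl2 and 3.42 and 1.87 for Ccl7, and in barcodes with no endothelial gene (1.79 and 1.98). Ccl2 fell under 2-fold, at 0.82, in cells with at most 2 markers of each other cell type. Macrophage markers were higher in the same venous cells, at 2474 and 6076 CPM, and macrophage barcodes held Ccl2 at 193 and 424 CPM; their part was not tested. Ccl19, a lymphoid chemokine, was at 8.67 and 34.6 CPM (10 and 65 UMIs). Ccl5, a chemokine of T cells and other leukocytes, was the member past the minimum that was lower, at 48.6 and 21.3 CPM, a log2 ratio of -1.19 (-1.81 to -0.58); without the cell with most Ccl5 UMIs in each library it was -0.92, and with cells thinned before the choice it turned to 0.40. Cx3cl1, a membrane-bound chemokine whose mean of 19.7 CPM just missed the minimum, was at 30.4 and 9.05 CPM (-1.75, -2.67 to -0.87). T-cell markers, at 218 and 28.7 CPM in the venous cells, were lower too, and their part was not tested. The interferon-induced chemokines Cxcl9 (55.5 and 31.4 CPM) and Cxcl10 (142 and 106 CPM) and the homeostatic Cxcl12 (135 and 134 CPM) did not pass 2-fold.

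**Figure D4:**
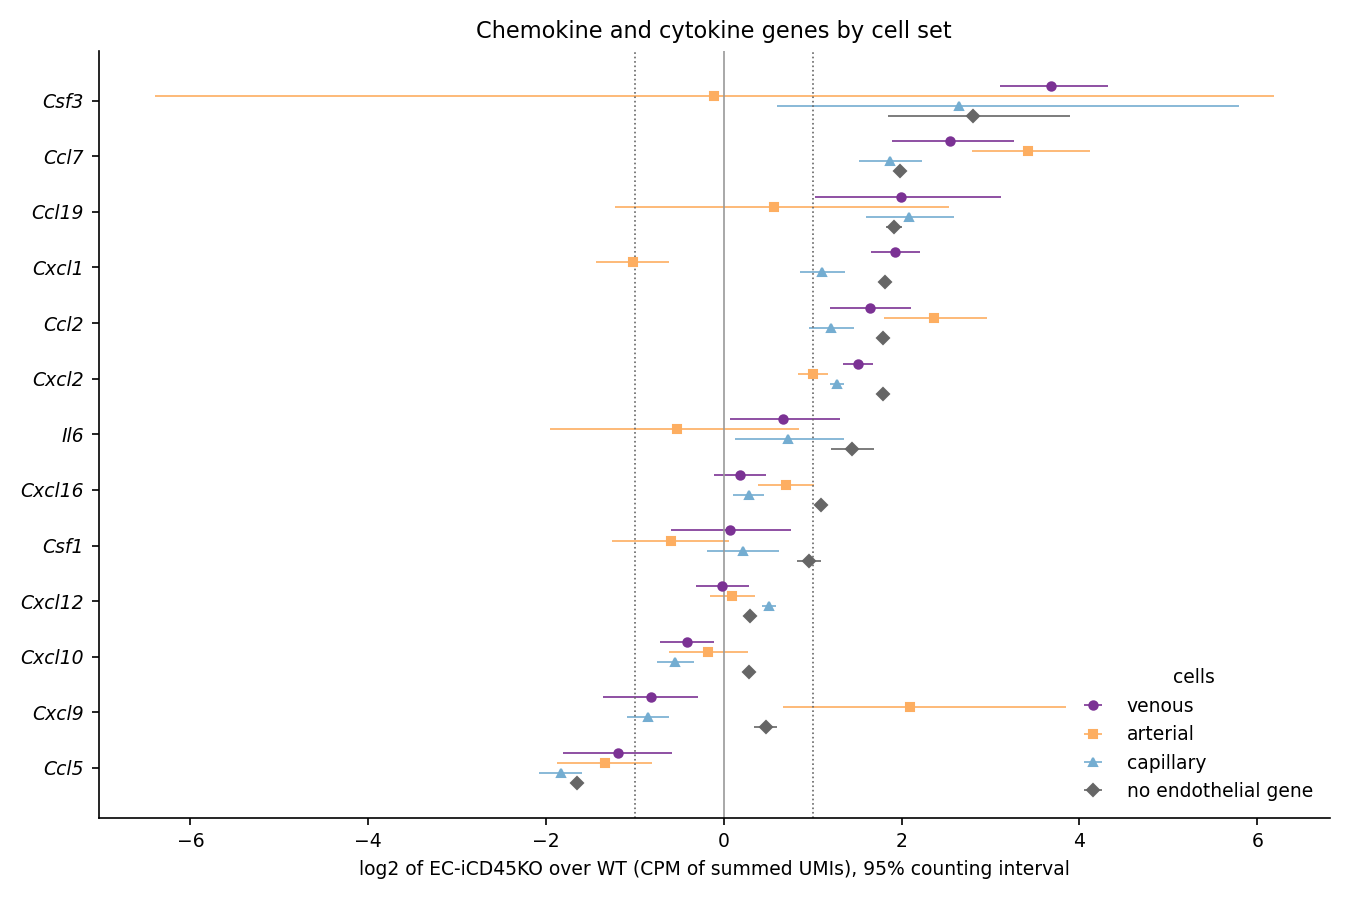
Log2 ratio of EC-iCD45KO over WT for the chemokine and cytokine genes in venous, arterial and capillary endothelial cells and in barcodes with no endothelial gene; bars are 95% counting intervals. Csf3 lies at 3.68 in venous and 2.65 in capillary cells and has an arterial interval from -6.40 to 6.19, Cxcl1 lies at 1.92 in venous, 1.11 in capillary and -1.02 in arterial cells, and Ccl2 and Ccl7 lie above 0 in all 4 sets.

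Counts past 2-fold in the pathways around these cytokines were near the share of 4.87% over all genes. None of 13 NF-kappa-B response genes passed 2-fold (median -0.14, with 2 intervals above 0 and 2 below): Nfkbia, the feedback inhibitor, had a log2 ratio of 0.01 (-0.09 to 0.12), Birc3, an inhibitor of apoptosis, -0.93 and Bcl3, a nuclear cofactor, 0.74. None of 12 genes of interleukin-6 and STAT3 signalling passed it either (median 0.08), although 5 had intervals above 0 and 4 below, against 11.5% and 13.2% of all genes. Intervals narrow as UMIs rise, and here and for the later lists all genes were not matched to the list for level. Socs3, its feedback inhibitor, was at 142 and 245 CPM, a log2 ratio of 0.79 (0.53 to 1.05). None of 12 early response genes passed it (median 0.23, with 5 intervals above 0 and 2 below), and Fos was at 763 and 1027 CPM. The acute-phase gene Saa3, in contrast, was at 15.6 and 366 CPM, a log2 ratio of 4.55 (3.88 to 5.32), with a UMI in 2.31% and 13.1% of cells. Its ratio was 1.97 in cells with at most 2 markers of each other cell type and 7.41 without the 5 highest cells of each library, which left 1 WT UMI. It was also higher in capillary cells (2.75) and in barcodes with no endothelial gene (1.92). Hp and Lcn2, which encode haptoglobin and lipocalin-2, had log2 ratios of 3.68 and 2.41, but 446 of 691 Hp UMIs and 484 of 752 Lcn2 UMIs came from 1 EC-iCD45KO cell. Without the cell with most UMIs of the gene in each library, the ratios were 2.84 and 1.57. In cells with at most 2 markers of each other cell type these ratios were 0.65 for Hp and 0.80 for Lcn2.

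Of 11 measured genes of adhesion and transmigration 0 were higher and 1 was lower, where 1.75% and 3.12% of all genes were (median log2 ratio 0.14). Vcam1 (chr3:116109949-116129688, minus strand), the ligand of integrin VLA-4, was the lower one, at 705 CPM in WT and 228 CPM in EC-iCD45KO (log2 ratio -1.63, -1.80 to -1.46). That value rested on few cells: 372 of its 813 WT UMIs were in 1 cell, and without the 5 cells with most UMIs in each library the ratio was -0.75, under 2-fold. Icam1 was at 204 and 246 CPM (0.27, 0.04 to 0.51), and Pecam1, which encodes CD31, the target of the beads, at 868 and 924 CPM. Bst1, an ectoenzyme, was at 50.3 and 82.5 CPM (0.71, 0.27 to 1.18).

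Of the 16 venous identity genes 1 was 2-fold higher and 1 lower between the libraries, Vcam1 being the latter, where 4.87% of all genes passed 2-fold, and the median was -0.08. Smaller differences went both ways: 5 genes had intervals above 0 and 7 below 0, against 11.5% and 13.2% of all genes, not matched for level. Aplnr, the apelin receptor, was at 63.3 and 127 CPM, a log2 ratio of 1.01 (0.62 to 1.41), which went under 2-fold in 4 of 13 alternative settings (lowest 0.42). Nr2f2 had a ratio of 0.20 (-0.01 to 0.42), Emcn, a venous and capillary sialomucin, 0.18 (0.05 to 0.30), and Vwf, von Willebrand factor, -0.45 (-0.64 to -0.25). The 11 measured genes of Weibel-Palade bodies and haemostasis had a median of -0.08, with 1 higher by 2-fold. Factor VIII (F8) was at 93.7 and 51.6 CPM (-0.86) and the protein C receptor Procr at 151 and 97.4 CPM (-0.63).

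Genes of antigen presentation and the interferon response had a median of -0.37. Of 12 measured, 8 had intervals below 0 and 0 above, against 13.2% and 11.5% of all genes, which were not matched for level. Of the same 12, 1 was 2-fold lower, where 3.12% of all genes were. The MHC class I gene H2-K1 had a ratio of -0.57, the immunoproteasome subunits Psmb9 and Psmb8 -0.79 and -0.70, and the peptide transporter Tap1 -0.72, each of these 4 under 2-fold. Capillary cells of the same libraries gave -0.46 for H2-K1, -0.43 for Psmb9 and -0.70 for Psmb8. B-cell markers (744 and 59.6 CPM) and T-cell markers (218 and 28.7 CPM) were lower in the same venous cells, and their part was not tested.

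The study's own question concerned mesenchymal transition. Of 14 measured mesenchymal genes 8 had intervals above 0 and 4 below, against 11.5% and 13.2% of all genes, which were not matched for level. The count past 2-fold was near the 4.87% of all genes. The 1 that reached 2-fold was Zeb2, a transcriptional repressor, at 99.7 and 200 CPM (1.001, 0.70 to 1.32); the list's median was 0.34, and it turned to -0.32 in cells with at most 2 markers of each other cell type. Zeb2 was under 2-fold in 10 of 13 alternative settings and at -0.18 in those same cells; the summed macrophage markers, at 2474 and 6076 CPM, were higher as well, and their part was not tested. The contractile genes did not differ in 1 direction: Acta2 was at 500 and 499 CPM, a ratio of 0.00, and Tagln had a ratio of -0.55, while in barcodes with no endothelial gene these were 1.41 and 1.43. The intermediate filament gene Vim was at 2494 and 3601 CPM (0.53), and fibronectin (Fn1) had a ratio of -0.65. The 12 measured TGF-beta pathway genes had a median of 0.02, with 1 higher by 2-fold. Of 7 genes of the shear stress response 1 was higher, the haem oxygenase Hmox1 at 21.7 and 46.3 CPM (1.09), which was 0.30 in cells with at most 2 markers of each other cell type. The flow-induced factor Klf2 was at 1134 and 786 CPM (-0.53).

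**Figure D5:**
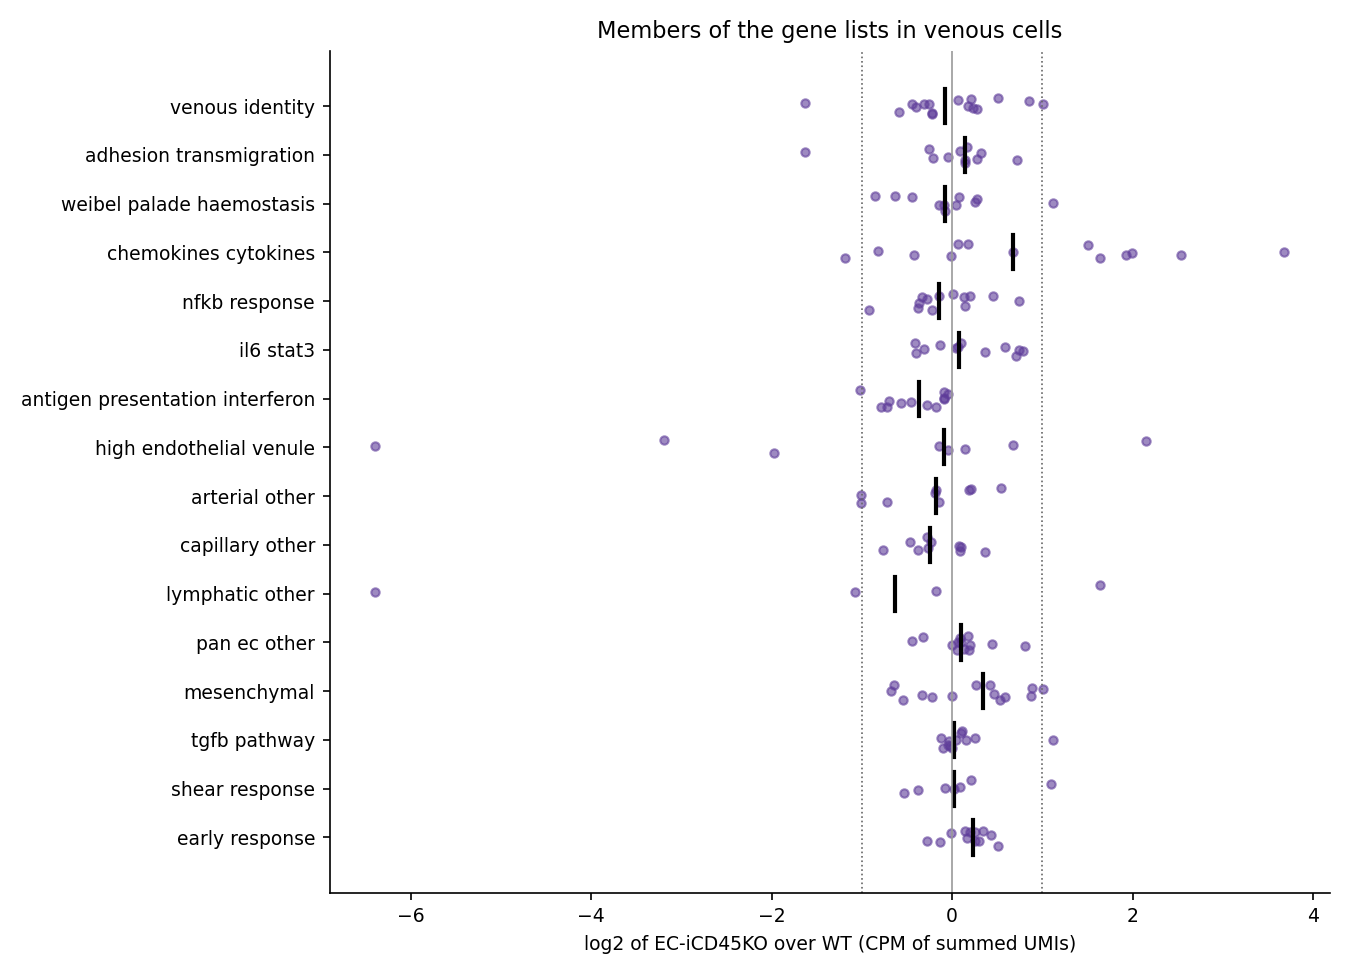
Log2 ratio of EC-iCD45KO over WT in venous cells for each gene at 20 CPM or more (points) of the 16 gene lists, with the list's median marked and lines at 2-fold. The chemokine and cytokine list has its median at 0.67, with 6 genes at least 2-fold higher and 1 lower. Antigen presentation has its median at -0.37, and the lymphatic list, with few points, has the lowest median.

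Several genes of high endothelial venules were lower in EC-iCD45KO venous cells. Glycam1 (chr15:103562759-103565081, minus strand), a mucin that L-selectin binds, was at 1215 CPM in WT and 133 CPM in EC-iCD45KO (log2 ratio -3.19, -3.39 to -2.995). It was counted in 58 WT cells (22.3%) and 30 EC-iCD45KO cells (7.56%). Arterial cells held a UMI of it in 18.8% and 13.6%, at 114 and 54.9 CPM, so that the EC-iCD45KO arterial share was above the venous one; capillary cells held it in 3.29% and 0.233%. A few cells held most of it: 37.5% of its 1401 WT UMIs were in 1 cell and 66.3% in 5, although the ratio was -3.13 without the 5 highest cells of each library. Barcodes with no endothelial gene held 31.0 and 0.779 CPM of Glycam1, which is the same direction. B-cell markers were lower in the same venous cells, at 744 and 59.6 CPM, and their part was not tested.

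The other genes of that programme were sparser. Madcam1, the ligand of integrin alpha4beta7, had 32 UMIs in 13 WT cells and none in EC-iCD45KO, where 0 counts allow a level of up to 1.964 CPM (exact Poisson limit); 8 WT UMIs were left without its 5 highest cells. Chst4, a sulphotransferase, had 29 and 2 UMIs, and Fut7, a fucosyltransferase, 35 and 3. Of these WT UMIs 89.7% and 88.6% were in 5 cells, and without the 5 highest cells of each library 3 and 0 UMIs of Chst4 and 4 and 0 of Fut7 were left. At least 2 of these 4 genes were counted in 14 WT and 4 EC-iCD45KO cells. Ccl21a, a chemokine of high endothelial venules and lymphatics whose near-identical copies can share reads, was at 2104 and 25.0 CPM, with 88.0% of its WT UMIs in 5 cells. Without the 5 highest cells of each library it was at 266 and 3.83 CPM (292 and 7 UMIs), a log2 ratio of -6.12. Enpp2, which encodes autotaxin, was at 160 and 41.0 CPM (-1.97, -2.37 to -1.58). Without the cells that held a UMI of Glycam1, Chst4, Fut7 or Madcam1, Ccl21a stood at -0.30 and Enpp2 at 0.02. B3gnt3, a glycosyltransferase of the same programme, went the other way, at 11.3 and 50.04 CPM (2.15, 1.31 to 3.11), and was also higher in arterial (2.64) and capillary cells (1.88). Of the 8 genes of the list with at least 20 CPM, 1 was higher and 3 were lower, where 1.75% and 3.12% of all genes were, and the median was -0.09.

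Markers of other cell types also differed between the venous cells of the 2 libraries. Plasma-cell markers summed to 4684 CPM in WT and 71.3 CPM in EC-iCD45KO venous cells, with 3153 of the 4906 Igkc UMIs in 1 WT cell. Jchain, Igha and Iglc2, further immunoglobulin genes, had log2 ratios of -7.22, -4.66 and -4.499, and the lymphocyte genes Ly6d and Aff3 -4.18 and -3.89. Ibsp, encoding bone sialoprotein, had 510 UMIs in WT, 355 of them in 1 cell, and 1 in EC-iCD45KO. Cd79a, a B-cell receptor subunit, was at 245 and 11.7 CPM (-4.39), and its ratio was -3.95 in arterial cells, -3.96 in capillary cells and -3.48 in barcodes with no endothelial gene. Ighg1, an immunoglobulin heavy chain, had 593 UMIs in WT, 585 of them in 1 cell, and none in EC-iCD45KO; without that cell 8 WT UMIs were left. Red-cell markers summed to 36.4 and 744 CPM, against 51.2 and 36.8 in arterial cells, 276 and 395 in capillary cells and 917 and 402 in barcodes with no endothelial gene, and 300 of the 750 Hbb-bs UMIs were in 1 EC-iCD45KO cell; the haemoglobin genes Hba-a1 and Hba-a2 had log2 ratios of 3.89 and 5.47. Fibroblast markers summed to 2111 and 1864 CPM and smooth muscle markers to 1378 and 1170 CPM. Neutrophil markers were at 43.4 and 152 CPM, platelet markers at 35.6 and 90.5 CPM with Ppbp, Gp9, Gp1bb and Gp1ba at 0, and mesothelial markers at 0 in both. Sfrp4, a secreted Wnt antagonist at 24.3 and 206 CPM, and the monocyte chemokine Ccl12 at 23.4 and 141 CPM, turned to -0.35 and -0.03 in cells with at most 2 markers of each other cell type.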

How the data were processed

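Single-cell RNA libraries of CD31-enriched aortic cells came from 1 WT and 1 EC-iCD45KO sample, both ApoE-/- on a Western diet. The authors deposited whole-number UMI counts per gene and barcode from Cell Ranger 7.1.0, per the file headers, with build mm10 per the submitters' processing notes. Annotation, intron and strand counting, cell calling and doublet removal are not given in the sources used here. The deposited matrices held 39849 and 30278 barcodes with 92058043 and 88967918 UMIs, none under 500.

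Kept barcodes had 300 or more genes and no more than 10% mitochondrial UMIs. Scrublet's own threshold marked 6 of 39503 and 1 of 28960 barcodes, so it had not worked and removed none; among the 10% with the highest scores were 6 of 260 and 11 of 397 venous cells. UMIs were summed over the chosen cells of each library and divided to CPM. Intervals are exact Poisson for CPM, exact conditional binomial for log2 ratios and Clopper-Pearson for shares. Genes whose mean reached 20 CPM were compared, and called at 2-fold. Thinning drew 1000 UMIs per cell with seed 7; 5 WT and 14 EC-iCD45KO venous cells were shallower and left out.

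B-cell barcodes had at least 2 of 6 B-cell genes, macrophage barcodes at least 4 of 7 macrophage genes, and both fewer than 3 pan-endothelial genes; barcodes with no endothelial gene had none of the 8. The members and gene lists were chosen with earlier results of these data known. Values of some listed genes are not reported here. Beyond the lists, the text names the 15 genes with the highest venous excess and the 10 with the strongest deficit, and the 10 largest differences in each direction between the libraries, all with a mean of at least 50 CPM. Positions are from GENCODE M21 (GRCm38; 32158 of 32285 gene IDs matched), promoters from RefSeq GRCm38.p6. Work was done with scanpy 1.11.5, pandas 2.3.3, scipy 1.17.1, numpy 2.4.6 and Python 3.11.15. The fold rule and intervals were tested on simulated data, with 200 genes changed.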

Additional observations from a re-analysis of the deposited data

Results flagged for a closer look

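Among the reported genes past 2-fold between the libraries in venous cells, 5 had a counting interval on 1 side of 0 in venous cells and on the other side in arterial or capillary cells; genes under 2-fold were not searched. With 1 library per group this contrast was not tested, and each value is the venous log2 ratio of EC-iCD45KO over WT minus the other one. Cxcl1 had a ratio of 1.92 in venous and -1.02 in arterial cells, a contrast of 2.95, while capillary cells gave 1.11. Ccl21a had a ratio of -6.39 in venous and 1.01 in capillary cells (0.63 to 1.40), a contrast of -7.40, while arterial cells gave -1.26 (-2.58 to -0.06), with 88.0% of its WT venous UMIs in 5 cells. Gja4, which encodes the arterial gap junction protein connexin 37, had a ratio of -1.01 in venous cells against 0.25 in arterial and 0.66 in capillary cells, contrasts of -1.26 and -1.67. It was at 59.0 and 29.3 CPM in venous and 353 and 420 CPM in arterial cells, and its venous ratio passed 2-fold in 6 of 13 alternative settings (-3.78 to -0.24). Sfrp4 had a ratio of 3.08 in venous and -1.03 in arterial cells, a contrast of 4.11, with 0.93 in capillary cells, and was at -0.35 in venous cells with at most 2 markers of each other cell type. Hbb-bs, a haemoglobin gene, had a ratio of 4.20 in venous and -0.81 in arterial cells, a contrast of 5.02, with 0.46 in capillary cells and 300 of its 750 EC-iCD45KO UMIs in 1 cell.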

How the results depend on the processing

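Results were recomputed under 9 alternatives chosen together with the design and 3 chosen after seeing the data (at most 2 markers of each other cell type, no cells with high endothelial venule genes, no cells with kidney tubule genes), with named genes also computed without their highest 1 or 5 cells. No paired analysis was possible because there was only 1 library on either side. The limit of at most 1 marker of other cell types left 4 WT and 23 EC-iCD45KO cells, under the minimum of 20 in WT, and gave no value. Of 261 values of the comparisons, 218 were the same and 43 moved, some medians with a change of sign; of 695 values of single genes, 589 were the same, 95 moved and 11 reversed. The cause of these changes was not tested.

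The number of genes at least 2-fold higher in EC-iCD45KO was 969 with cells thinned before the choice, 2621 with no minimum and 0.5 CPM added, and 246 in cells with at most 2 other markers, against 120. The number lower was 1152, 2407 and 422 under these settings, against 214. For genes higher than in arterial cells the counts were 365, 953 and 300, and with no minimum 698 were lower. Against capillary cells 249, 503 and 245 were higher and 344, 613 and 313 lower. Ptprc stood at -2.41 after thinning. The difference in venous share was 0.27 points in cells with at most 2 other markers.

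Medians that moved with thinning were adhesion (-0.052), antigen presentation (-0.12), arterial genes (-1.14), capillary genes (0.077) and TGF-beta (0.22). With at most 2 other markers they were adhesion (-0.043), capillary (-0.41), lymphatic (-1.61), mesenchymal (-0.32) and TGF-beta (-0.16). With Lrg1 left out of the rule they were adhesion (-0.047), high endothelial venule (-1.38), capillary (-0.38) and mesenchymal (0.53). Requiring 3 venous genes gave capillary -0.43, lymphatic -1.77 and mesenchymal 0.61. The mean of single-cell CPM gave antigen presentation -0.29, capillary -0.20 and mesenchymal 0.61. With no minimum, antigen presentation was -0.46, high endothelial venule -1.49 and mesenchymal 0.13. Without cells holding high endothelial venule genes, that list was 0.34 and capillary genes -0.19.

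Single genes reversed in cells with at most 2 other markers were Sfrp4 (-0.35), Ccl12 (-0.028), Pdpn (-1.94), Zeb2 (-0.18) and, for venous excess, Timp1 (-0.40). After thinning, Ccl5 (0.40), Fxyd6 (0.077) and, against the other cell sets, Timp1 (-0.23), Ptgs1 (-0.075) and Sox17 (0.0040) reversed. Enpp2 (0.023) reversed without high endothelial venule cells. Csf3, Ccl7, Cxcl1, B3gnt3 and Glycam1 passed 2-fold under every alternative that gave them a value. These limits hold for all: 1 library per group and 260 and 397 cells.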

Other observations

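Several genes outside the rule were higher in cells with more of the 6 venous genes, which are also the deeper cells and share a cell with the rule genes; the values are descriptions. In EC-iCD45KO, Serpinb1a was at 71.4 CPM in cells with 2 venous genes, 228 with 3 and 822 with 4 to 6, and in WT at 64.9, 184 and 422 CPM. Mctp1 was at 429, 1194 and 1877 CPM in EC-iCD45KO and at 435, 330 and 1384 CPM in WT. Csf3 was at 37.3, 89.5 and 417 CPM in EC-iCD45KO, and 23 of its 25 WT UMIs were in cells with 4 to 6 venous genes. Icam1 was at 134, 153 and 314 CPM in EC-iCD45KO and at 130, 171 and 265 CPM in WT. Vcam1, with 372 of its 533 UMIs in the lowest WT class in 1 cell, did not follow this order, at 1729, 482 and 245 CPM in WT and 162, 337 and 206 CPM in EC-iCD45KO. Neither did Vwf, at 292, 507 and 295 CPM in WT and 276, 261 and 251 CPM in EC-iCD45KO. Timp1 (957, 210 and 235 CPM, then 180, 2590 and 118 CPM) and Cxcl1 (61.6, 155 and 112 CPM, then 146, 525 and 455 CPM) did not follow it in either library.

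A few venous cells carried genes of the kidney tubule. At least 2 of 8 such genes had a UMI in 9 of 397 EC-iCD45KO venous cells (2.27%, 1.04 to 4.26) and in 0 of 260 WT cells, which allows a share of up to 1.41%. In EC-iCD45KO the count was 0 of 235 arterial, 3 of 1289 capillary and 3 of 831 other endothelial cells, and in WT it was 0 of 330 arterial, 3 of 1034 capillary and 0 of 727 other endothelial cells. These markers summed to 6.94 CPM in WT and 58.0 CPM in EC-iCD45KO venous cells.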
